A study of Rattus norvegicus with 2 samples.

Results

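Axon guidance ligands and receptors were followed in the rat basilar artery after ligation of both common carotid arteries. Members were taken by gene symbol: all semaphorins, plexins, EphA and EphB receptors, A and B ephrins, Slits, Robos and symbols starting with Unc5, with the neuropilins, Ntn1, Ntn4, Dcc, the neogenin gene and the repulsive guidance molecules Rgma and Rgmb. This rule found 53 of the 15037 genes with a named probe set, and each was read by 1 probe set. The prefix Unc5 also took in Unc50, a protein of intracellular membranes, and Unc5cl, a relative of the cytoplasmic part of the UNC5 receptors, and neither is a netrin receptor, which leaves 51 guidance genes. Of the 72 protein-coding rat genes that fit the rule in RefSeq, 19 had no named probe set in the annotation used here (6 plexins, 3 EphA and 2 EphB receptors, 3 semaphorins, 2 Robos, 1 ephrin, neogenin and 1 repulsive guidance molecule) and were not analysed here.

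The samples were 2 Clariom S arrays, 1 per group, from male Sprague-Dawley rats given as 13 months old in the labels. The ligation array held RNA pooled in equal amounts from 4 rats whose common carotid arteries had been ligated 4 weeks earlier, and the sham array held RNA pooled from 4 rats whose carotid arteries were exposed without ligation. With 1 pool per group there is no replicate spread, so no difference below has an SD or a p-value, and how precise a value is cannot be read from these data. The deposited values are linear signal intensities, which depend on the probes as well as on the RNA, so levels were compared between arrays for each gene and not between genes.

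Guidance cues were first known for steering growing axons. Semaphorins signal through plexins, with neuropilins as co-receptors for most secreted class 3 members. Slits act on Robo receptors, netrins on Dcc, neogenin and UNC5 receptors, and membrane-bound ephrins on Eph receptor tyrosine kinases of a neighbouring cell. In vessels the same families guide sprouting endothelial cells and mark arterial and venous identity, and many of them act on the actin skeleton through small GTPases.

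Most of the 53 members differed little between the arrays, as most named genes did, and a few stood apart. Slit3 was lower after ligation, with a difference of -1.84, while Sema3g and the neuropilin Nrp2 were higher, with differences of 1.09 and 1.04. Each difference is the sham value subtracted from the ligation value on the log2 scale. Sema5a was lower too, by at least 2.08-fold, a bound because its ligation signal was at the level of background. Over 2-fold higher were 2 members, and 3 were under 0.5-fold, so 5 of 53 (9.43%) were past 2-fold, against 7.01% of all named genes. By direction, 4.04% of all named genes were over 2-fold and 2.97% were under 0.5-fold. The members' share lay near that of all named genes. With quantile normalization, which gives both arrays the same distribution, no member was over 2-fold and 4 were under 0.5-fold. The median difference of the members was 0.12, against -0.01 over all named genes. Above 0 lay 30 of the 53 (56.6%), against 48.7% of all named genes. Among genes above background on at least 1 array, 19 of 32 members and 4371 of 7751 named genes lay above 0. Their medians were 0.25 for the members and 0.08 for the named genes. A difference of less than 0.5 in either direction was found for 37 members, and 11 lay between 0.5 and 1. Of all 15037 named genes, 10528 and 3455 lay in these bands, so the members were much like the other genes. Both member counts include genes within background on both arrays.

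Background was read from 23 antigenomic probe sets, which match no rat transcript and are sorted by how many of their 25 bases are G or C. The brightest had a signal of 157 on the ligation array and 151 on the sham array. On both arrays 30 members exceeded it, Sema5a and Unc5a exceeded it on the sham array alone, and 21 did not exceed it on either. Signals at or below this probe set are described as within background, which does not show that the gene is absent. The brightest antigenomic probe sets were those at the extremes of base composition, with signals of 109 to 157. The classes with 19, 20, 24 and 25 G or C bases had identical signals on the ligation and sham arrays. The cause of this was not tested, and these values may not be plain readings of background. The 11 classes with 8 to 18 G or C bases reached only 35.7 on the ligation array and 44.2 on the sham array, and 49 members exceeded those levels on at least 1 array. Genes were not matched to the classes by the composition of their own probes.

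**Figure D1:**
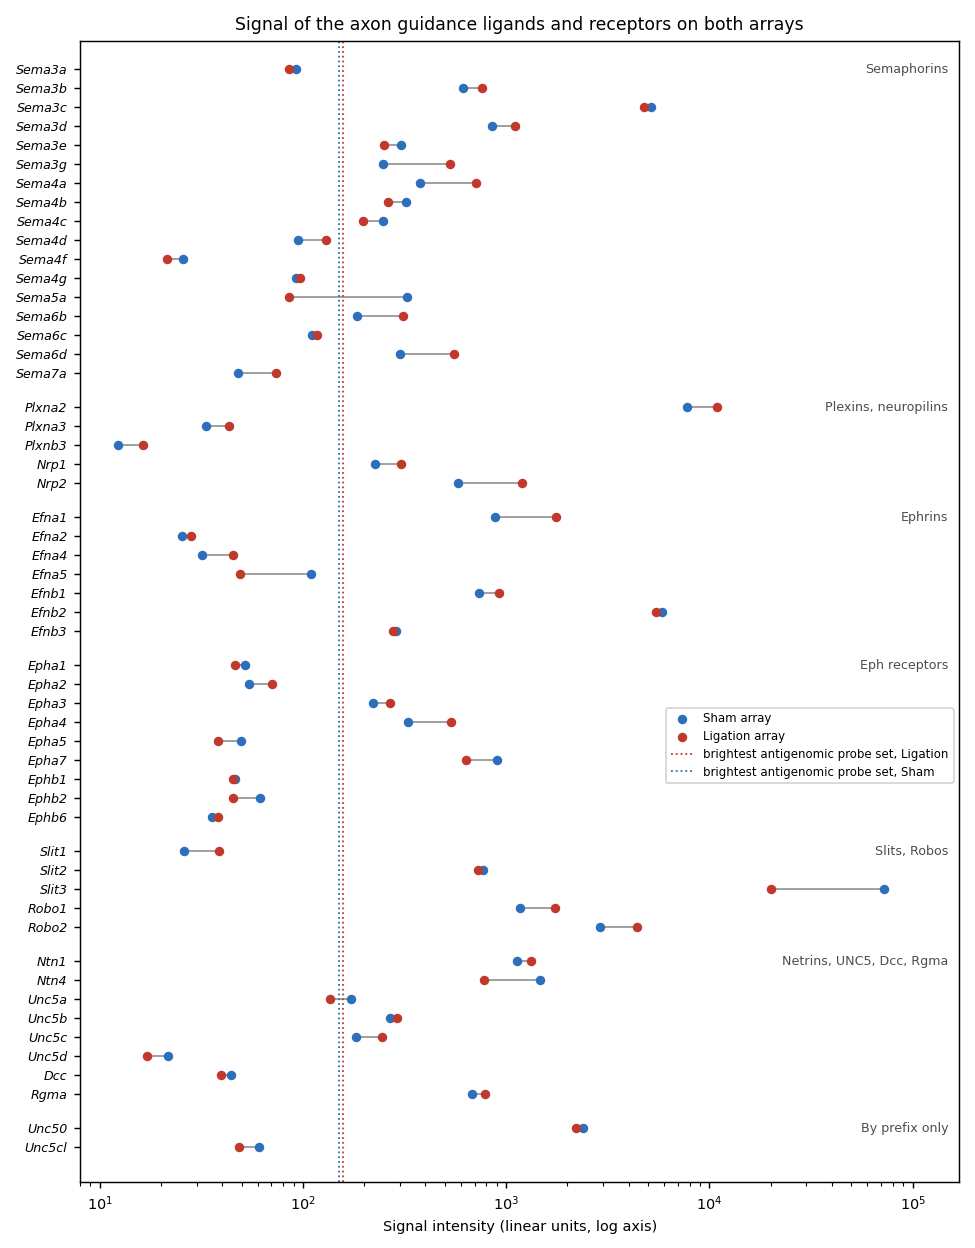
Signal intensity (linear units on a log axis) of each of the 53 members on the sham array (blue) and the ligation array (red), with dotted lines at the brightest antigenomic probe set of each array. The ligation point of Slit3 lies far to the left of its sham point and both are right of the lines, that of Sema5a lies left of its line, and 21 members lie left of both lines on both arrays.

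Upstream sequences are shown for the members past 2-fold that had a signal above background, as far as RefSeq promoter windows of the rat assembly GRCr8 held them. They give the 250 bases before the annotated start, 5′ to 3′, with matches to the motifs searched in capitals.
Sema3g, chr16:6419775-6420024, + strand: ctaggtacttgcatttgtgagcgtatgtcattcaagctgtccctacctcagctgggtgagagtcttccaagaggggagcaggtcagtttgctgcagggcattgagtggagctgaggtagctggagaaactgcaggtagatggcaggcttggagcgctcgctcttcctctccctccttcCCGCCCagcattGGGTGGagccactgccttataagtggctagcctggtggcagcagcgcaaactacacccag
Nrp2, chr9:71617004-71617253, + strand: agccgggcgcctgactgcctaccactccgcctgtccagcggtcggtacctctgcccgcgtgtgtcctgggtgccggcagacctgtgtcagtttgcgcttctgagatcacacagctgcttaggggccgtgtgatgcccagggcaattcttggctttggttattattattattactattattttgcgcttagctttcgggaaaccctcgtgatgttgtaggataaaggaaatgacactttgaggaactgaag
Slit3, chr10:20075679-20075928, + strand: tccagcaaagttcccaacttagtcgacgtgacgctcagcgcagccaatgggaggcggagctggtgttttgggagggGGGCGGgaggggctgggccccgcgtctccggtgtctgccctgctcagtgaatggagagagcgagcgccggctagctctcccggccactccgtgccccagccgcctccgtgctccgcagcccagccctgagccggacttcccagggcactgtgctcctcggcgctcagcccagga
Among the 53 members 41 had such a window, and Sema5a was not among them. The G and C content was 56.8% for Sema3g, 52.8% for Nrp2 and 69.2% for Slit3, beside a median of 60.0% for the 41 windows and 52.0% for all 27457 windows of the same length. Motifs were searched on both strands and may overlap. The GC box core GGGCGG stood in the Sema3g and Slit3 windows, in 22 of the 41 and in 32.4% of all windows. The CCACCC motif stood in the Sema3g window, in 16 of the 41 and in 26.6% of all windows. None of TATAAA (13.1% of all windows), the AP-1 motif TGACTCA (3.98%), the E-box CACGTG (5.79%) and the CArG box of serum response factor (1.5%) stood in the 3 windows shown. CACGTG stood in the windows of Sema3e and Sema4b and a CArG box in that of Sema3c, which had differences of -0.27, -0.29 and -0.11. A match describes letters only and is no evidence of binding.

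The 17 semaphorins, the largest family of ligands, lay on both sides of 0, with 10 above it, 7 below it and a median of 0.08. Sema3g, a secreted class 3 semaphorin that binds neuropilin-2 and is known from endothelium, had a signal of 529 on the ligation array and 249 on the sham array, which is 2.12-fold higher after ligation. It stood in place 265 from the highest among the 7083 named genes above background on both arrays. Its difference of 1.09 became 0.99 with quantile normalization and 0.92 with 64 added to each signal, both short of 2-fold, as it also was, narrowly, after the trend on the mean signal was removed. The other class 3 members differed less. Sema3c, which guides neural crest cells in the outflow tract of the mouse heart, had 4765 after ligation and 5142 after sham surgery, a difference of -0.11. Sema3d had 1110 and 854 (0.38), Sema3b had 762 and 617 (0.30), and Sema3e, which binds a plexin without a neuropilin, had 252 and 303 (-0.27). Sema3a, the prototype of repulsive semaphorins, was within background on both arrays with 85.2 and 92.8.

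The membrane-bound semaphorins lay on both sides of 0. Sema5a, a transmembrane semaphorin with thrombospondin repeats, had a signal of 85.3 on the ligation array and 326 on the sham array. Its ligation signal was within background, so its decrease is given as a bound and was at least 2.08-fold, taken against the lowest signal above background on that array. The bound was 1.77-fold with 64 added to each signal and 2.08 to 2.22-fold under the other scalings. The 3 class 6 members were all above 0. Sema6d had 555 after ligation and 299 after sham surgery (1.86-fold), and Sema6b had 311 and 183 (1.70-fold). Sema6c had 117 and 110, both within background. Class 4 was split. Sema4a, known for its part in T cell activation, had 709 and 377, which is 1.88-fold higher after ligation. Sema4b (263 and 322) and Sema4c (198 and 248) were lower by 0.29 and 0.33 on the log2 scale. Sema4d, Sema4f and Sema4g were within background on both arrays, as was Sema7a, the semaphorin with a GPI anchor, with 73.4 and 48.1.

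The semaphorin receptors measured here all lay above 0. Nrp2, a co-receptor for class 3 semaphorins and for VEGF-C, had a signal of 1191 on the ligation array and 580 on the sham array, which is 2.05-fold higher. It stood in place 318 from the highest among the 7083 genes, and its difference of 1.04 lay just past the threshold. With each array centred on its median the difference was 0.99 and with quantile normalization it was 0.95, both short of 2-fold, as it also was with the trend removed (0.96) and with 64 added (0.96). Nrp1, the co-receptor for Sema3a and VEGF-A, had 304 and 226, a difference of 0.42. Plxna2, a plexin that pairs with neuropilins, had 10938 and 7787, a difference of 0.49. The other 2 plexins, Plxna3 (43.3 and 33.2) and Plxnb3 (16.4 and 12.3), were within background on both arrays. Of these 5 genes, 3 were therefore above background, and 6 further plexins were not analysed here.

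**Figure D2:**
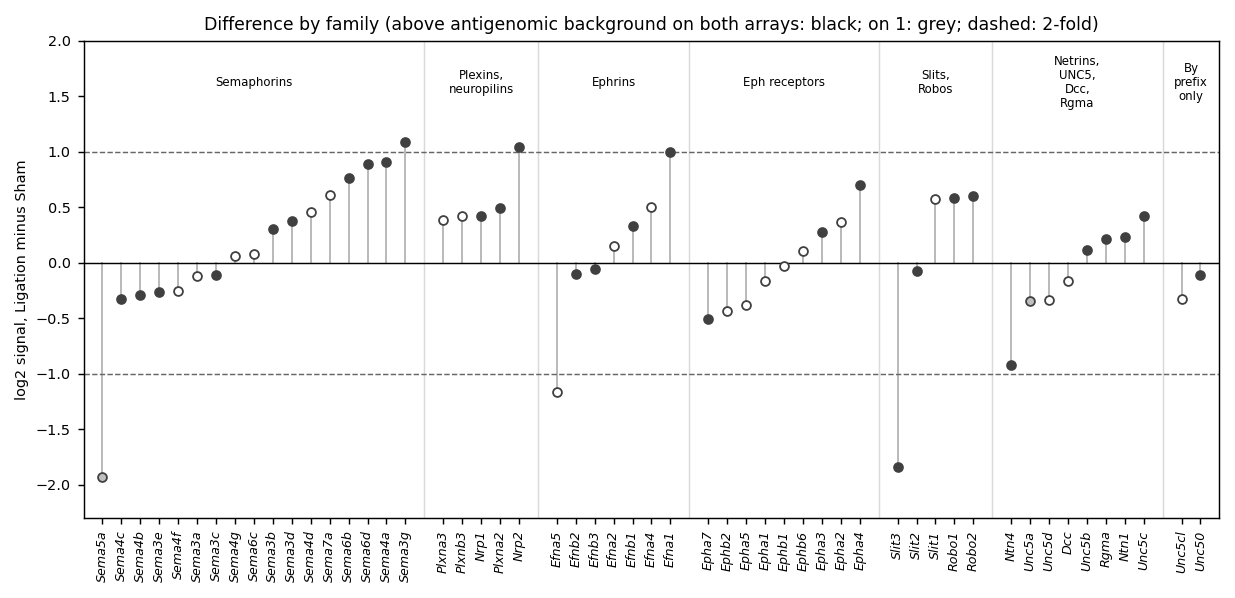
Difference in log2 signal, ligation minus sham, for each member, ordered within its family. Black points were above the brightest antigenomic probe set on both arrays, grey points (Sema5a and Unc5a) on the sham array alone, open points were within background on both, and dashed lines mark 2-fold; Efna5 is the only open point past a dashed line.

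Of the 7 ephrins 5 differed by less than 0.5, and of the 9 Eph receptors 7 did, beside 10528 of all 15037 named genes. Of those 7 Eph receptors only Epha3 was above background, so the small differences of the others do not show stable expression. Efna1, an ephrin of endothelial cells that binds EphA2, had a signal of 1758 on the ligation array and 883 on the sham array, which is 1.99-fold and just under the threshold. Efna5 had 49.1 and 110, a difference of -1.16 that counted as under 0.5-fold, but both signals were within background and no fold is given. Efna2 and Efna4 were within background too. The B ephrins, which span the membrane, were above background on both arrays. Efnb2, the ligand that marks arterial endothelium, had 5464 and 5879, a difference of -0.11. Efnb1 had 920 and 733 (0.33), and Efnb3 had 276 and 288 (-0.06).

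None of the 9 Eph receptors passed 2-fold, and their median was -0.03. That median was the value of Ephb1, which was within background on both arrays. Above background on both arrays were 3 of the 9, with a median of 0.28. Epha4, which binds ephrins of both classes, had a signal of 537 after ligation and 330 after sham surgery, a difference of 0.70. Epha7 had 634 and 902, a difference of -0.51. Epha3 had 269 and 222, a difference of 0.28. Receptors of the same class thus lay on both sides of 0. Epha1, Epha2, Epha5, Ephb1, Ephb2 and Ephb6, the last a receptor without kinase activity, were within background on both arrays, with signals between 35.7 and 70.2 and differences from -0.44 to 0.37.

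The ligand Slit3 and the receptors Robo1 and Robo2 lay on opposite sides of 0, while the other Slits did not share the decrease of Slit3. Slit3, a secreted ligand whose loss in mice causes a hernia of the diaphragm, had a signal of 20208 on the ligation array and 72211 on the sham array, which is 3.57-fold lower after ligation. It stood in place 33 from the lowest among the 7083 genes. Both signals lay far from the background and below the top of the scale, which was 999963 and 998298. Slit2 had 729 and 769, a difference of -0.08, and Slit1 was within background with 38.7 and 26.1 and lay above 0, as the Robos did. The median of the 3 Slits was -0.08 and their mean was -0.45, since Slit3 alone was far from 0. The receptors were higher by less than 2-fold. Robo1 had 1741 after ligation and 1164 after sham surgery (1.49-fold), and Robo2 had 4380 and 2888 (1.52-fold). The opposite signs of Slit3 and the Robos were found under each scaling tried, with Slit3 from -2.01 to -1.83, Robo1 from 0.49 to 0.58 and Robo2 from 0.51 to 0.60.

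Both netrins were above background and had opposite signs. Ntn4, a netrin of basement membranes related to laminin chains, had a signal of 775 on the ligation array and 1467 on the sham array, which is 1.89-fold lower. It was under 0.5-fold only with quantile normalization, among the scalings tried. Ntn1, the founding netrin, had 1327 and 1131, a difference of 0.23. Their receptors differed by less than 0.5. Unc5b, the netrin receptor of endothelium, had 290 and 268 (0.12), and Unc5c had 245 and 183 (0.42). Unc5a had 135 on the ligation array, within background, and 172 on the sham array. Unc5d and Dcc, the receptor of attraction to netrin-1, were within background on both arrays. Rgma, a repulsive guidance molecule that binds neogenin, had 789 and 682 (0.21). Unc50, which is no guidance gene, had 2209 and 2390 (-0.11), and Unc5cl was within background.

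**Figure D3:**
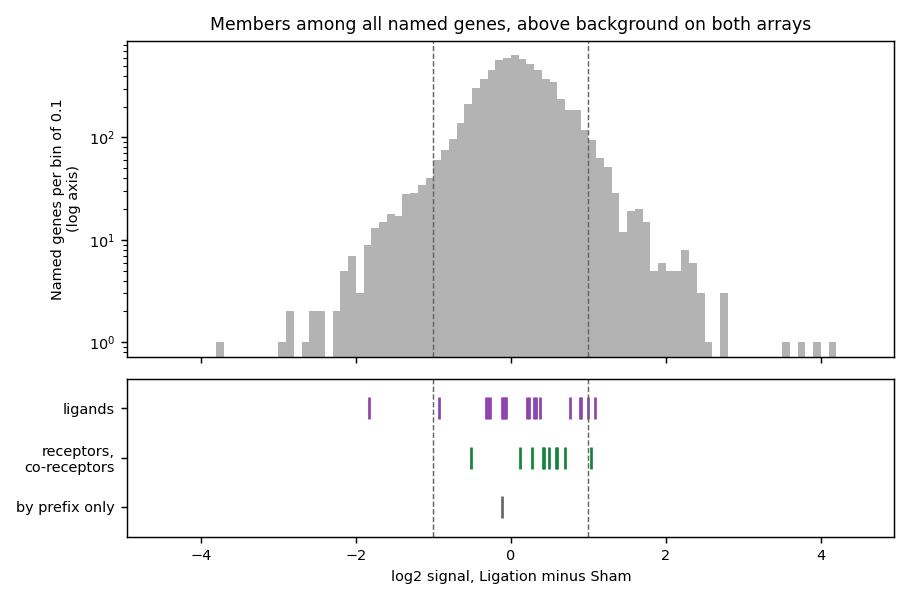
Number of named genes above background on both arrays per bin of 0.1 of the log2 difference, ligation minus sham (upper panel, log axis), and the 30 members above background on both as ticks (lower panel), with dashed lines at 2-fold. Slit3 is the lowest ligand and Ntn4 the next, and the receptors run from Epha7 at -0.51 to Nrp2 at 1.04.

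By role, the 30 ligands had a median of 0.12 and ranged up to 1.09, with Slit3 and Sema5a at the low end, and the 21 receptors and co-receptors had a median of 0.28 and ranged from -0.51 to 1.04. Of the 5 members past 2-fold, 4 were ligands (Sema3g, Sema5a, Slit3 and Efna5) and 1 was a co-receptor (Nrp2). These are 13.3% of the ligands and 4.76% of the receptors and co-receptors, against 7.01% of all named genes. Efna5 was within background on both arrays. Above background on at least 1 array, 3 of 20 ligands and 1 of 11 receptors and co-receptors were past 2-fold, beside 751 of 7751 named genes. At a threshold of 1.5-fold, 9 members were higher and 4 were lower, beside 12.4% and 10.8% of all named genes. Those added on the higher side were Efna1, Sema4a, Sema6d, Sema6b, Epha4, Robo2 and Sema7a, the last within background on both arrays, and Ntn4 was added on the lower side. Over the scalings tried, the differences of Sema3g, Nrp2 and Efna1 stayed between 0.91 and 1.09, and that of Slit3 stayed below -1.

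**Figure D4:**
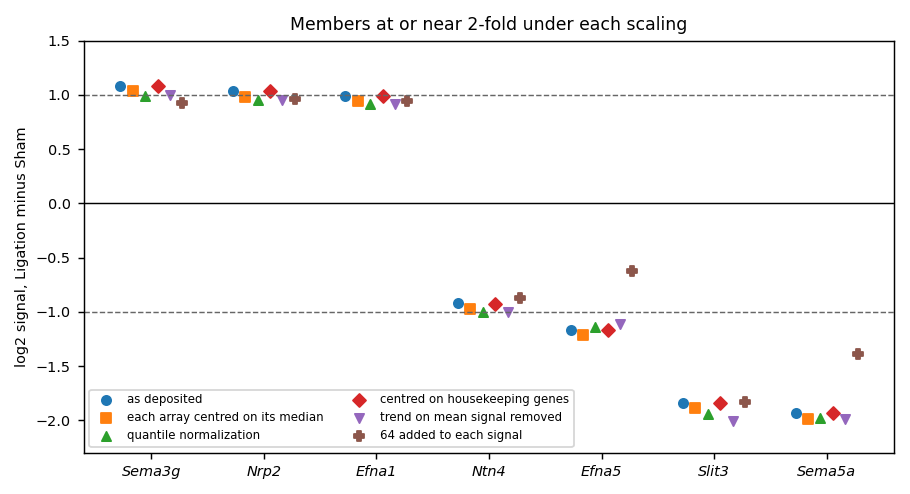
Difference in log2 signal, ligation minus sham, of the 7 members nearest to or past 2-fold, as deposited and under 5 other scalings, with dashed lines at 2-fold. Slit3 stays below -1 in all 6 settings, and Sema3g and Nrp2 lie at the line. The points of Sema5a and Efna5 rest on signals within background and give no exact size.

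Genes that carry guidance signals inside the cell differed little as a list. Over 2-fold were 2 and under 0.5-fold were 2 of the 53 that could be read, with a median of 0.10. The share past 2-fold was 7.55%, against 7.01% of all named genes. Chn1, a Rac GTPase-activating protein that acts downstream of Eph receptors, had a signal of 4684 after ligation and 1650 after sham surgery (2.84-fold). Rnd1, a small GTPase that binds plexins, was within background on both arrays with 74.6 and 23.4. Kalrn, a guanine nucleotide exchange factor, had 290 and 728 and was 2.51-fold lower, and Rock2, a kinase that promotes actomyosin contraction, had 11453 and 24018 and was 2.10-fold lower. The 2 probe sets of Mical2, a monooxygenase of actin filaments, disagreed. The first had 9708 and 23532, a difference of -1.28, and the other was within background with 116 and 86.3.

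Of 22 co-receptors and further guidance cues, 2 were over 2-fold and 2 under 0.5-fold, with a median of -0.003. The share past 2-fold was 18.2%, against 7.01% of all named genes, but the 2 lower genes were within background on both arrays. Cntn1, the adhesion molecule contactin 1, had a signal of 754 on the ligation array and 105 on the sham array, and was at least 5-fold higher, since the sham signal was within background. Nrcam, an adhesion molecule and partner of neuropilins, had 379 and 89.6 and was at least 2.51-fold higher on the same basis. The 2 lower genes were Hjv and Flrt1.

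Markers of several cell types differed between the same arrays. All 8 smooth muscle markers, the cells that define the wall of this artery, were above background and below 0, from -2.27 for Smtn to -0.10 for Tagln, with a median of -1.32. Their summed signal was 1858804 after ligation and 2730534 after sham surgery. Summed signals, here and below, weigh the brightest genes most and do not measure the amount of RNA of a cell type. Slit3 lay within the range of these markers, and the part of smooth muscle RNA in its value and in that of Sema5a was not tested. All 8 endothelial markers were above background and above 0, from 0.54 to 2.78, with a median of 1.09 and sums of 171958 and 94911. Sema3g, Nrp2 and Efna1 lay within this range, as did Sema4a, Sema6b, Sema6d, Epha4, Robo1 and Robo2. All of these members also lay within the ranges of the astrocyte, oligodendrocyte, Schwann cell and pericyte markers given below. All but Sema3g lay within that of the macrophage markers. Sema4a, Sema6b, Sema6d, Epha4, Robo1 and Robo2 lay within that of the fibroblast markers too. Their place in the endothelial range is thus not particular to it. The part of endothelial RNA in the values of all these members was not tested.

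Markers of glia lay above 0, and those of neurons lay on both sides of it. Astrocyte markers ranged from 0.31 to 4.12 (7 of 7 above 0, sums of 92206 and 46004), with Gfap at 29760 and 1908. Oligodendrocyte markers ranged from 0.29 to 3.76 (6 of 6 above 0, sums of 36195 and 18756), and Schwann cell markers from 0.41 to 2.38 (4 of 4 above 0, sums of 190990 and 86030). Most of each glial sum came from 1 gene, in the same order Gja1 (52323 and 42280), Cldn11 (20287 and 16630) and Pmp22 (189643 and 85563). The sums therefore do not stand for the other markers of each list. Aldh1l1, Mog and Sox10 were within background on both arrays, and Mag and Ncmap on the sham array, so their differences give no exact size. The part of glial RNA in the values of Epha4, Sema6d, Cntn1 and Nrcam was not tested. The 10 neuron markers had a median of 0.000935, with 5 above 0, 4 below it and sums of 4940 and 4542. Of these, Gad1, Gad2, Nefl and Slc17a7 were within background on both arrays. Among the 6 neuron markers above background, 5 lay above 0 and 1 below it, with a median of 0.30. Macrophage markers ranged from 0.31 to 1.06 (7 of 7 above 0, sums of 36632 and 21660), fibroblast markers from 0.14 to 0.92 (6 of 6 above 0, sums of 987267 and 735292), and pericyte markers from -1.46 to 1.61 (4 of 5 above 0, sums of 62128 and 44273). In pooled tissue RNA, fewer cells of a type and less RNA per cell cannot be told apart.

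**Figure D5:**
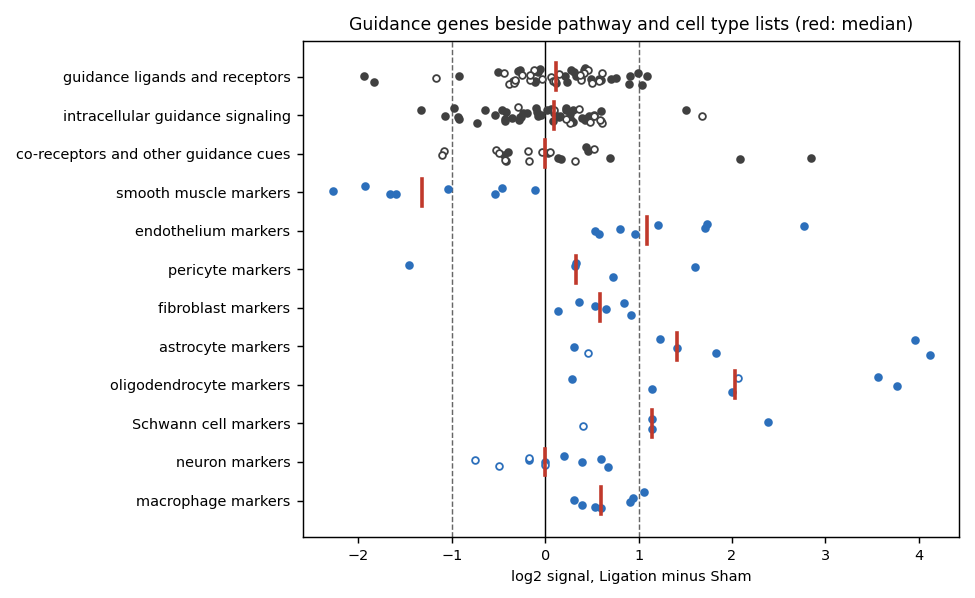
Difference in log2 signal, ligation minus sham, for each gene of the guidance families, the 2 pathway lists (grey) and the cell type marker lists (blue), with open points for genes within background on both arrays, red bars at the medians and dashed lines at 2-fold. The guidance families lie around 0.12 while smooth muscle markers centre on -1.32 and endothelial markers on 1.09.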

How the data were processed

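RNA of the basilar artery was read on Clariom S rat arrays after labeling of 50 ng of pooled RNA. The authors deposited linear signal intensity per probe set. RMA and Affymetrix Expression Console are named in the submitters' processing notes, and version 3.2 of an array analysis tool of Filgen in the methods. The genome build is not given in the sources used here. RMA equalizes probe intensities between arrays and is usually given as log2 values, but the deposited intensities are linear and reach 999963, and which steps made them is not given in the sources used here. Their medians over gene probe sets were 110 on the ligation array and 106 on the sham array, and quantile normalization still changed calls.

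Of 23188 gene probe sets, 15049 had 1 gene symbol in the platform annotation, 8139 had none and none had several. Symbols were checked through Entrez identifiers against GRCr8, and no member's symbol changed. Log2 was taken of the deposited intensity with no further scaling, and probe sets of a gene were averaged on the log2 scale. Genes named in full were members past 2-fold above background and, per family, the highest, the lowest and the brightest members above background, and further members were chosen after their values were seen. The members and lists were chosen with earlier results of these data known. Where 1 array was within background, a fold is given as at least the brighter signal over the lowest signal above background on the other array. The scalings were tested on simulated data, made from the sham array with known shifts of some genes and random noise. The simulated arrays had no difference in scale or trend, so that test could not show how well a scaling removes one. The alternatives were median centring, quantile normalization, centring on 13 housekeeping genes, removal of the trend by lowess (fraction 0.3), 64 added to each signal, the brightest probe set, other thresholds and floors, and the mean in place of the median. Values were computed in Python 3.11.15 with pandas 2.3.3, numpy 2.4.6 and statsmodels 0.14.6 and drawn with matplotlib 3.10.9.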

Additional observations from a re-analysis of the deposited data

How the results depend on the processing

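Slit3 was under 0.5-fold in all 6 scalings. The bound of Sema5a was at least 2-fold in 5 of the 6 and 1.77-fold with 64 added. Centring on the 13 housekeeping genes shifted every difference by only 0.0024, their median. That median lay at Actb and Eef1a1, whose signals were near the top of the scale on both arrays. This setting therefore hardly differed from the values as deposited and was no separate check. The 2 members over 2-fold became 1 with each array centred on its median (Sema3g) and 0 with quantile normalization, with the trend on the mean signal removed, with 64 added to each signal and at a 3-fold threshold, and 9 were over a 1.5-fold threshold. Nrp2 ranged from 0.95 to 1.04 and Sema3g from 0.92 to 1.09. The 3 members under 0.5-fold became 2 to 4. Efna5 was at -0.62 with 64 added. The median of the members stayed between 0.05 and 0.28. Against the antigenomic classes with 8 to 18 G or C bases, a choice made after seeing the data, 49 members exceeded background in place of 32. Signaling genes over 2-fold numbered 1 with 64 added, and those under 0.5-fold numbered 5 with quantile normalization and 5 with the trend removed. Co-receptors and further cues under 0.5-fold numbered 0 with quantile normalization, with the trend removed and with 64 added. Alternatives for the signaling, co-receptor and marker lists were added after seeing the data. The cause of these changes was not tested. With no replicate spread, a difference or median was held to the 2-fold threshold alone, and the size of a move within it could not be judged. No paired analysis was possible because each group has 1 array.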
